A study of Mus musculus with 5 samples.

Results

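The BCL2 family genes described here are 10 regulators of apoptosis. They were chosen by name as all probes whose platform annotation carries 1 of the symbols Bcl2, Bcl2l1, Mcl1, Bak1, Bok, Bcl2l11, Bad, Bid, Bik or Bbc3, which gave 10 of 16593 named genes and 26 of the 25697 probes on an Illumina mouse bead array. The proteins fall into 3 roles, with 3 pro-survival members (Bcl2, Bcl2l1, Mcl1), 2 pore-forming effectors (Bak1, Bok) and 5 BH3-only members (Bcl2l11, Bad, Bid, Bik, Bbc3), so that 7 of the 10 are pro-death. RNA came from 46C mouse embryonic stem cells, a single cell line with a green fluorescent reporter for the neural gene Sox1, and each sample was hybridised to its own array. The ESC samples (n = 2) were grown on gelatin in serum-free N2B27 medium with LIF, BMP and the FGF receptor inhibitor PD173074 at 100 nM. The N2B27 48 hr samples (n = 3) were trypsinised, washed and kept for 48 hr in N2B27 medium alone, and both media used B27 without vitamin A. The labels name no separate cultures, so the spread behind each p-value may be only technical. The labels describe the first group as pluripotent and the second as competent to respond to differentiation signals.

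The BCL2 family controls the outer membrane of the mitochondrion. Effectors such as BAK and BAX open pores in it and release cytochrome c, which activates caspases through APAF1, while pro-survival proteins hold the effectors and the BH3-only proteins in check. BH3-only proteins carry stress signals to this switch, and mouse embryonic stem cells are known to enter apoptosis readily after DNA damage.

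After 48 hr in N2B27, Mcl1, a pro-survival gene, was 2.16-fold lower, and the pro-death genes Bok and Bcl2l11 were 3.35-fold and 2.24-fold higher. Bid (1.28-fold) and the pro-survival gene Bcl2l1 (1.33-fold) were slightly higher. Bad, Bik and Bbc3 did not pass the test, and Bcl2 and Bak1 stayed at background. Where a gene had several tested probes, the brightest stands for it, and a change passed at an adjusted p under 0.05 from limma, adjusted over all 12605 probes in the fit. Values are normalized log2 signals with an offset of 16 added, so folds understate the change of dim probes. In bulk RNA, fewer cells of a type and less RNA per cell cannot be told apart.

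Of the 8 members tested, 5 passed, 4 upward and 1 downward. Over all 8828 genes tested, 45.2% passed, 23.8% upward and 21.4% downward, and over all probes tested 43.1% passed, against 62.5% of these 8 members, and nothing particular to the family was read from that count. By probe, 9 of 14 tested member probes passed, 8 upward and 1 downward. These include the Bcl2l11 probes ILMN_1229255, which passed upward, and ILMN_3078327, which did not pass. Both were detected on 0 ESC arrays and entered the fit through the N2B27 48 hr arrays alone. Among the 8 members, 2 were higher and 1 was lower by at least 2-fold, while over all genes 5.23% were higher and 7.48% lower by this measure, a difference that was not tested. The ESC and N2B27 48 hr arrays did not overlap in 5 of the 8 members and in 65% of all genes. The median log2 change was 0.22 over the 8 members, 0.22 over the 6 pro-death members tested and 0.049 over all genes. The 2 pro-survival members tested moved in opposite directions (Mcl1 -1.11 and Bcl2l1 0.41), so their median of -0.35 describes neither. Of the 6 pro-death members tested, 3 (50%) passed, all upward, and nothing particular to them was read from that count. Scaling each array to its median in place of quantile normalization moved the median of all genes to -0.11 and the calls over all genes from 2100 up and 1889 down to 760 up and 1802 down.

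**Figure D1:**
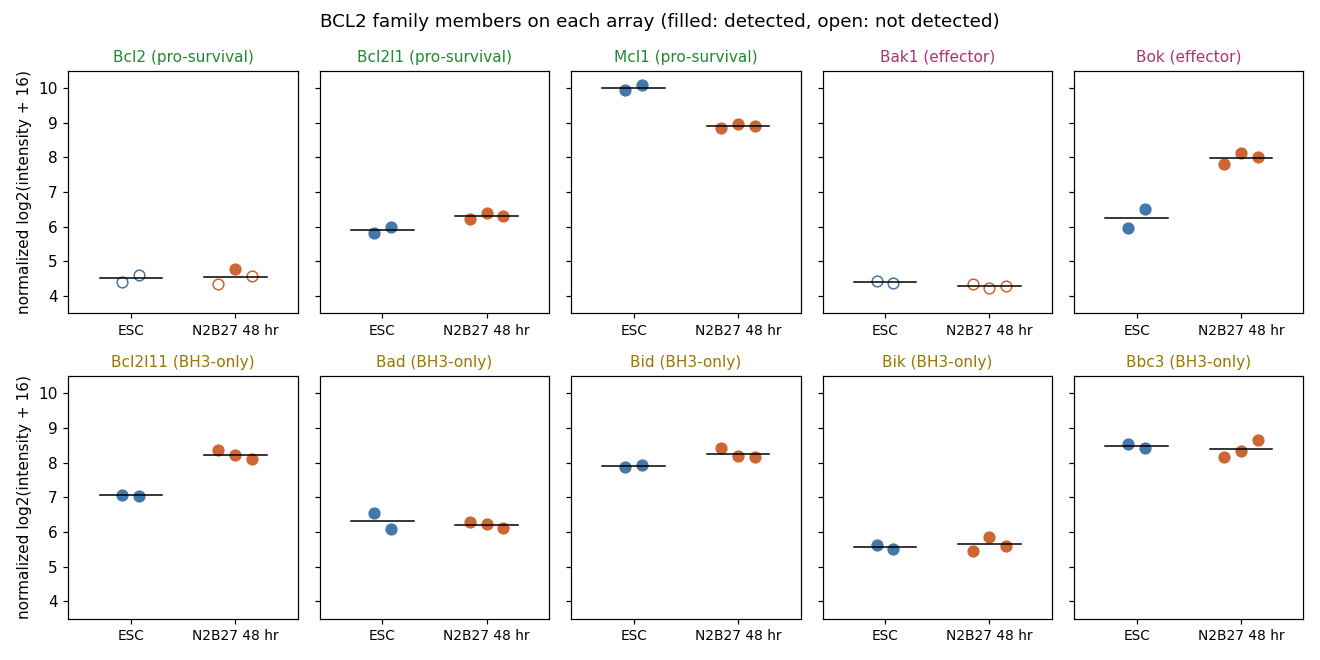
Normalized log2(intensity + 16) of each BCL2 family member on the 2 ESC arrays (blue) and the 3 N2B27 48 hr arrays (orange), by the probe with the highest mean signal; lines are group means, and open points were not detected. Mcl1 lies lower and Bok and Bcl2l11 higher on all 3 N2B27 48 hr arrays, and the points of Bcl2 and Bak1 lie near background.

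The promoters of the 3 members with the largest changes are shown because their transcripts moved in opposite directions. RefSeq windows of 250 bases before to 50 bases after a start site (build GRCm38.p6) matched 9 of the 10 members, with 15 windows in all. Capitals mark matches, on either strand, to any of 7 short motifs.
Mcl1 (chr3:95658471-95658770, plus strand): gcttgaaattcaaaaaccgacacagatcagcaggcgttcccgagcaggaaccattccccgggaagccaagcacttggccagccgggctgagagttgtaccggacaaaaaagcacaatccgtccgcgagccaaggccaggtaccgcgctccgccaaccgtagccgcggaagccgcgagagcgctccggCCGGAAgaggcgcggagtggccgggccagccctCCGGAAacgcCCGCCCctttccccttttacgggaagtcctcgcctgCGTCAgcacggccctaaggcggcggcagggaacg
Bok (chr1:93685325-93685624, plus strand): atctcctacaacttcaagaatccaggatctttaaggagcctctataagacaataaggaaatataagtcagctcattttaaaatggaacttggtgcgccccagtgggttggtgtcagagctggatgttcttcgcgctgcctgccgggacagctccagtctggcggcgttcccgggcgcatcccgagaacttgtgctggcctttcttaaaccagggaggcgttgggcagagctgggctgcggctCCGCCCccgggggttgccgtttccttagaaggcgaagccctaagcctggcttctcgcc
Bcl2l11 (chr2:128125788-128126087, plus strand): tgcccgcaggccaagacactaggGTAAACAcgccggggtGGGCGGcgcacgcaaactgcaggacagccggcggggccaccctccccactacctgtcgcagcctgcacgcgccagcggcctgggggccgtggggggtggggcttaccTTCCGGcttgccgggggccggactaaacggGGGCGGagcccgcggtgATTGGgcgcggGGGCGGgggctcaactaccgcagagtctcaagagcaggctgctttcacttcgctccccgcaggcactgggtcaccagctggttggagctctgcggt
The motifs were FOXO (GTAAACA), STAT (TTCNNNGAA), the CRE core (TGACG), the GC box (GGGCGG), the CCAAT box (CCAAT), ETS (CCGGAA) and the E-box (CACGTG), and no marked matches overlap in the windows printed. Bcl2l11 has 2 windows, of which the first is printed. FOXO letters began at position -227 of that window, where 1 is the start site, and occur in 3.65% of all 32851 windows and in 2 of the 15 member windows. The other was a Bbc3 window. The Mcl1 window held ETS letters at positions -63 and -30, a motif in 14.9% of all windows, and a CRE core at position 17, found in 20.8%. Its GC box began at -20, and the only match in the Bok window was a GC box at -8, a motif in 35.7% of all windows. The printed Bcl2l11 window also held 3 GC boxes, ETS letters at -104 and a CCAAT box at -57, a motif in 37.4% of windows. The second Bcl2l11 window (chr2:128127325-128127624) held GC and CCAAT boxes but no FOXO or ETS letters. STAT letters, in 8.30% of all windows, were in 0 of the 15 member windows, and E-box letters, in 7.15%, were in 1. Of the 15 member windows, 10 held a GC box, 5 ETS letters, 4 a CCAAT box and 3 a CRE core. None of these counts was tested. A match describes these letters and says nothing of binding.

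Among the pro-survival members, Mcl1, a short-lived inhibitor of BAK and BAX, fell. Its only probe gave log2 signals of 9.96 and 10.08 on the ESC arrays and of 8.85, 8.95 and 8.91 on the N2B27 48 hr arrays. Both ESC arrays were above all 3 N2B27 48 hr arrays, and the replicates of a group lay close together (SD 0.085 in ESC and 0.052 in N2B27 48 hr). The log2 change was -1.11 ± 0.0933 (SE, adjusted p = 4.2e-06, n = 2 and 3). In the deposited intensities, not normalized between arrays, the same probe read 1193 and 1157 in ESC and 367, 537 and 572 in N2B27 48 hr. The fall passed under all 18 alternatives run on probes, with changes from -1.33 to -1.03.

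Bcl2l1, which encodes the pro-survival protein BCL-XL, was measured by 3 probes. The brightest gave 5.83 and 5.98 in ESC and 6.23, 6.38 and 6.32 in N2B27 48 hr. The groups did not overlap, and the change was 0.41 ± 0.142 (adjusted p = 0.038). A dimmer probe (ILMN_2647885) changed by 0.39 ± 0.139 (adjusted p = 0.043), and the other was detected on 1 array and not tested. The dimmer probe's call was lost in 9 of 18 alternatives, among them the authors' normalized values (0.18, adjusted p = 0.066), no background correction (0.17, adjusted p = 0.070) and leaving out ESC replicate 1 (0.42, adjusted p = 0.135), ESC replicate 2 (0.33, adjusted p = 0.244) or N2B27 48 hr replicates 1 (0.41, adjusted p = 0.055) or 2 (0.36, adjusted p = 0.105). The call of the brightest probe was lost in 6 of 18 alternatives, with a change of 0.19 under median scaling (adjusted p = 0.668), 0.33 under cyclic loess (0.091) and 0.41 without the detection filter (0.072). It was also lost without ESC replicate 1 (0.34, adjusted p = 0.250), without ESC replicate 2 (0.48, adjusted p = 0.111) and without N2B27 48 hr replicate 2 (0.37, adjusted p = 0.109). Without either ESC array the remaining one is assumed to vary like the other group.

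Bcl2, the founding pro-survival member, had 8 probes and none was tested. They were detected in 2 of 40 combinations of probe and array, with deposited intensities of 49.3 to 68.3. The array mean over all probes was 187 to 264. At background a probe gives no level for its gene.

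Of the effectors, Bok, a BAK-like and BAX-like protein, rose. Its brighter probe (ILMN_2772077) gave 5.96 and 6.52 in ESC and 7.82, 8.11 and 8.0 in N2B27 48 hr. The ESC arrays differed from each other more than the N2B27 48 hr arrays did (SD 0.395 and 0.147), yet all 3 of the latter lay above both. The change was 1.74 ± 0.170 (adjusted p = 1.3e-05), the largest among the 8 members tested, and ran from 1.32 to 2.03 over the 18 alternatives, all of which it passed. The dimmer probe was detected on 1 of the 2 ESC arrays and on all 3 N2B27 48 hr arrays and was at least 1.62-fold higher (adjusted p = 0.0031). Without ESC replicate 2 its adjusted p was 0.061, with a fitted change of 0.62. The single Bak1 probe, for the effector BAK, was detected on 0 of 5 arrays, with intensities of 53.2 to 61.9, and Bax had no probe under its symbol and was not analysed here.

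Among BH3-only members, Bcl2l11, which encodes BIM, an activator that ERK phosphorylation marks for degradation, rose. Its brightest probe (ILMN_3157568) gave 7.07 and 7.03 in ESC and 8.36, 8.21 and 8.09 in N2B27 48 hr. The groups did not overlap, and the change was 1.17 ± 0.120 (adjusted p = 2.0e-05). It passed in all 18 alternatives, with changes from 0.91 to 1.27. A second bright probe (ILMN_2590638), assigned by the annotation to another transcript of the gene, gave 6.26 and 6.21 in ESC and 7.23, 7.10 and 6.87 in N2B27 48 hr. This probe too separated the groups, and its change of 0.83 ± 0.146 (adjusted p = 9.2e-04) was lost only under median scaling (0.60, adjusted p = 0.087).

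The other probes of Bcl2l11 were dim. ILMN_1229255 was detected on 0 ESC arrays and on all 3 N2B27 48 hr arrays and was higher by at least 1.26-fold (adjusted p = 0.0087). Leaving out ESC replicate 1 or 2 gave adjusted p-values of 0.096 and 0.051. ILMN_3078327 was detected on 0 ESC and 2 N2B27 48 hr arrays and did not pass (adjusted p = 0.228). Both entered the fit through the N2B27 48 hr arrays alone, so only the bright probes, detected on all 5 arrays, measure the gene on both sides.

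Bid, whose protein links death receptors to mitochondria once caspase 8 has cut it, rose slightly. Its bright probe gave 7.87 and 7.92 in ESC and 8.42, 8.20 and 8.16 in N2B27 48 hr, without overlap. The change was 0.36 ± 0.116 (adjusted p = 0.027). It was lost in 6 of 18 alternatives, with 0.13 under median scaling (adjusted p = 0.803) and 0.26 under cyclic loess (adjusted p = 0.088). The same held without ESC replicate 1 (0.34, adjusted p = 0.174), ESC replicate 2 (0.38, adjusted p = 0.129), N2B27 48 hr replicate 1 (0.28, adjusted p = 0.066) and N2B27 48 hr replicate 2 (0.39, adjusted p = 0.052). The other Bid probe was detected on 0 arrays.

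The remaining BH3-only genes did not pass the test. Bad, which AKT and other kinases inactivate by phosphorylation, gave 6.55 and 6.07 in ESC and 6.29, 6.23 and 6.12 in N2B27 48 hr, with the groups overlapping. Its change was -0.098 with a 95% interval of -0.47 to 0.27 (adjusted p = 0.681). Bbc3, which encodes the p53 target PUMA, gave 8.54 and 8.42 in ESC and 8.17, 8.32 and 8.66 in N2B27 48 hr by its brightest probe. N2B27 48 hr replicate 1 was below and replicate 3 above both ESC arrays, and the change was -0.095 (-0.41 to 0.22, adjusted p = 0.633). Of its dimmer probes, 1 did not pass (adjusted p = 0.688) and the other was detected on 0 arrays. Bik gave 5.63 and 5.51 in ESC and 5.46, 5.86 and 5.61 in N2B27 48 hr, and its change was 0.072 (-0.29 to 0.43, adjusted p = 0.760).

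**Figure D2:**
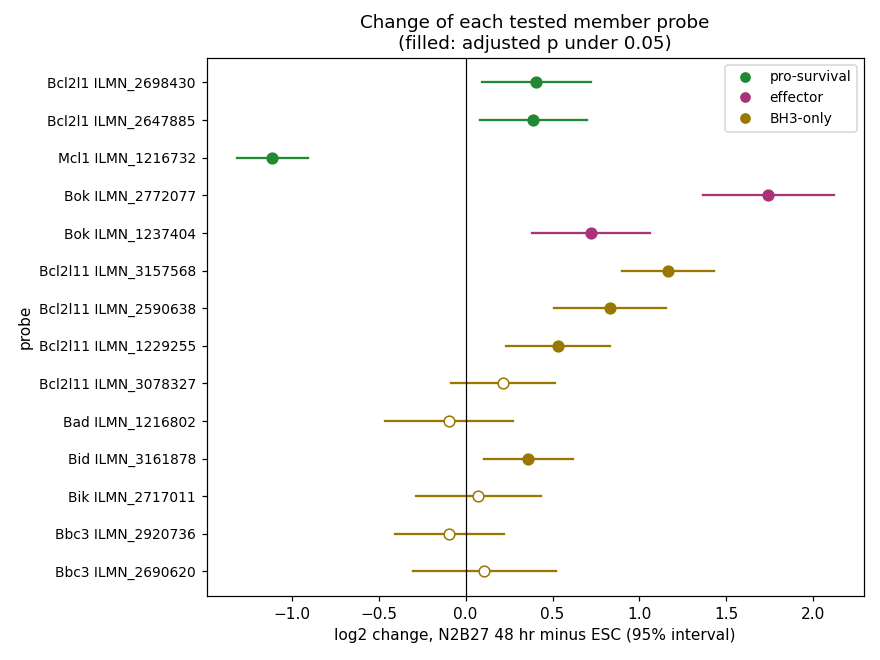
Log2 change (N2B27 48 hr minus ESC) with its 95% interval for the 14 member probes in the fit, coloured by role; filled points passed at an adjusted p under 0.05. Mcl1 is the only probe below 0 that passed (-1.11), and both Bok probes and 3 of 4 Bcl2l11 probes lie above 0 and passed. Of these, the Bcl2l11 probe ILMN_1229255 was detected on 0 ESC arrays and entered the fit through the N2B27 48 hr arrays alone.

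Pro-death and pro-survival members were also compared within each array, where a constant added to all log2 values of an array cancels. For each member the log2 ratio to Mcl1 was taken on each array and the ESC mean subtracted. The ratio of Bok to Mcl1 was higher by 2.75, 2.94 and 2.87 on N2B27 48 hr arrays 1, 2 and 3, against -0.22 and 0.22 on the ESC arrays. That of Bcl2l11 was higher by 2.47, 2.22 and 2.14, against 0.081 and -0.081. All 6 pro-death members tested had a higher ratio to Mcl1 on every N2B27 48 hr array than on any ESC array. Mean shifts ran from 1.02 (Bad) to 2.86 (Bok). The SDs of these 2 were 0.122 and 0.0948 over the N2B27 48 hr arrays and 0.419 and 0.310 over the ESC arrays. The fall of Mcl1 itself (-1.11) enters each of these ratios, so a gene with no change of its own also shifts upward. Bad and Bbc3, which did not pass, changed by -0.098 and -0.095, and the median over all genes was 0.049. The share of all genes with such a shift was not computed, and nothing particular to pro-death members was read from this count. The pro-survival member Bcl2l1 shifted by 1.52 ± 0.0215 (SD, n = 3) in the same way.

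Set against Bcl2l1 in place of Mcl1, the pro-death members moved both ways. The rise of Bcl2l1 itself (0.41), a call lost in 6 of 18 alternatives, enters each of these ratios. A gene with no change of its own therefore shifts downward. Bok was higher by 1.34 ± 0.0736 (SD, n = 3) and Bcl2l11 by 0.76 ± 0.188, each above both ESC arrays on all 3 N2B27 48 hr arrays. Over the ESC arrays the SDs of these ratios were 0.291 and 0.133. The ratio of Bid moved by -0.046 ± 0.204 (SD, n = 3) and overlapped the ESC arrays. Bbc3 and Bad had mean shifts of -0.50 and -0.51, and Bik of -0.34, and all 3 lay below both ESC arrays on each N2B27 48 hr array. Their own changes (-0.095, -0.098 and 0.072) did not pass. The share of all genes shifted in either direction was not computed, and nothing particular to pro-death members was read from these shifts. These ratios are descriptions and were not tested.

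**Figure D3:**
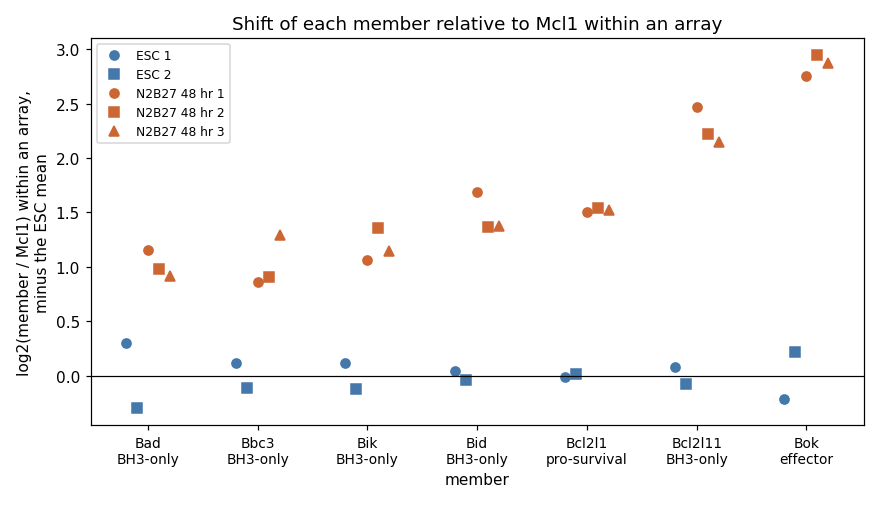
Log2 ratio of each tested member to Mcl1 within an array, minus the mean of the 2 ESC arrays, for ESC (blue) and N2B27 48 hr (orange) arrays. The 3 N2B27 48 hr arrays lie above both ESC arrays for all 7 members, from a mean shift of 1.02 for Bad to 2.86 for Bok. The fall of Mcl1 (-1.11) enters every ratio.

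The genes whose profiles over the 5 arrays were most like a member were found by the root mean square difference of log2 values centred on their own mean. For Bok these were Auts2, Dok2 and Elmo1, at 0.150, 0.16 and 0.162. For Mcl1 the rule gave Man2b1, at 0.0388, and also Mslnl and Acsm4, which were not detected after 48 hr in N2B27, so that their likeness to Mcl1 has no measured value. With 2 groups, such likeness mostly reflects the size of the difference between them.

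Outside the 10 members, 9 lists of apoptosis genes held 107 genes, of which 65 were tested. Of these, 14 rose, 15 fell and 36 did not pass, so 44.6% passed, against 45.2% of all genes. Their median log2 change was 0.047. Under median scaling 4 rose and 13 fell. The other BCL2 family genes numbered 8 tested of 15, and 2 rose, 1 fell and 5 did not pass (median 0.22). Pmaip1, which encodes the BH3-only protein NOXA that binds MCL1, rose by 0.87 ± 0.164 (adjusted p = 0.0014), while its dimmer probe did not pass (adjusted p = 0.494). Bcl2l13 rose by 0.54 ± 0.119 (adjusted p = 0.0037), an adjusted p that was 0.061 without ESC replicate 2 (0.49) and 0.473 under median scaling (0.31). Bcl2l14, detected in ESC alone, was lower by at least 1.51-fold (adjusted p = 0.0017). Its probe entered the fit through the ESC arrays alone, so the gene was not measured on both sides. Bcl2l2, the pro-survival gene for BCL-W, and the mitophagy receptor gene Bnip3l did not pass (adjusted p = 0.077 and 0.952), nor did the dimmer Bcl2l2 probe (adjusted p = 0.0501), while the mean of the Bcl2l2 probes passed (0.36, adjusted p = 0.032).

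Transcription factors that drive BH3-only genes moved both ways, and among 5 tested 2 rose, 1 fell and Myb and Trp73 did not pass. The list median of 0.29 is the fitted value of Myb. Myb was detected on 0 ESC and 3 N2B27 48 hr arrays, and Trp73 on 2 ESC and 0 N2B27 48 hr arrays. Each entered the fit through 1 group alone, so neither was measured on both sides. With array quality weights both passed (adjusted p = 0.032 for Myb and 0.026 for Trp73). Foxo1, a forkhead factor that AKT keeps out of the nucleus, rose by 1.42 ± 0.120 (adjusted p = 4.5e-06). Ddit3, which encodes the stress factor CHOP, rose by 1.04 ± 0.167 (adjusted p = 5.0e-04) and by 0.84 with its dimmer probe. E2f1, a cell cycle factor, fell by 0.84 ± 0.101 (adjusted p = 6.8e-05). Each of these 3 calls held in all alternatives run. The single probes of Foxo3 and Foxo4 were detected on 0 arrays.

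In the p53 axis 5 of 11 genes fell, 1 rose and 5 did not pass (median -0.25). Trp53inp1, a p53 target, fell by 1.29 ± 0.118 (adjusted p = 8.1e-06), and Cdkn1a, the gene for the cell cycle inhibitor p21, by 1.15 ± 0.147 (adjusted p = 1.0e-04). Mdm2, the ubiquitin ligase of p53 and its target, fell by 0.74 ± 0.0908 (adjusted p = 7.4e-05). Every tested probe of these 3 genes fell. The death receptor gene Tnfrsf10b rose by 0.58 ± 0.144 (adjusted p = 0.0076), an adjusted p that was 0.140 without ESC replicate 1 (0.38) and 0.391 under median scaling (0.36), and its other tested probe did not pass (adjusted p = 0.153). The targets Ccng1 and Zmat3 did not pass (adjusted p = 0.739 and 0.904), as was the case for Bbc3, and Trp53 had no probe under its symbol.

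Among kinases and 14-3-3 proteins that act on BAD or BIM, 3 of 11 rose, 3 fell and 5 did not pass (median -0.047). Pim2, a survival kinase that phosphorylates BAD, was detected on 0 ESC arrays and on all 3 N2B27 48 hr arrays by 3 probes. These were at least 6.80-fold, 4.76-fold and 2.45-fold higher (adjusted p = 4.8e-08 for the brightest). They entered the fit through the N2B27 48 hr arrays alone, so the gene was not measured on both sides. Pim3, a relative of Pim2, went the other way and fell by 1.61 ± 0.10 (adjusted p = 4.3e-07). The 14-3-3 gene Ywhaz rose by 0.42 ± 0.104 (adjusted p = 0.0071), an adjusted p that was 0.088 without ESC replicate 2 (0.38) and 0.582 under median scaling (0.23). The other calls of the list were Ywhah, which rose, and Map2k1 and Sfn, which fell (adjusted p = 0.048, 0.043 and 0.039). Sfn was detected on 2 ESC and 0 N2B27 48 hr arrays, entered the fit through ESC alone and was at least 1.17-fold lower. Under median scaling Ywhah changed by 0.040 (adjusted p = 0.941), and without the detection filter the 3 adjusted p-values were 0.091, 0.093 and 0.066. Each was lost without either ESC array. The adjusted p-values without ESC replicates 1 and 2 were 0.299 and 0.108 for Ywhah, 0.292 and 0.096 for Map2k1, and 0.119 and 0.207 for Sfn. Without N2B27 48 hr replicate 1 they were 0.109, 0.096 and 0.062, without replicate 2 that of Ywhah was 0.097, and without replicate 3 those of Map2k1 and Sfn were 0.064 and 0.096.

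Of 5 enzymes that add ubiquitin to MCL1 or remove it, 0 rose and 1 fell (median -0.021). This was Usp9x, a deubiquitinase that stabilises MCL1, which fell by 1.01 ± 0.159 (adjusted p = 4.5e-04) by its brighter probe. The dimmer probe did not pass (adjusted p = 0.561). The ligase genes Huwe1 and Btrc did not pass (adjusted p = 0.685 and 0.904).

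Downstream of the membrane, 2 of 11 apoptosome and caspase genes rose, 1 fell and 8 did not pass (median 0.086). Apaf1, the scaffold of the apoptosome, fell by 0.60 ± 0.143 (adjusted p = 0.0062), an adjusted p that was 0.088 without ESC replicate 1 (-0.52), and its dimmer probe did not pass (adjusted p = 0.072). Htra2, a mitochondrial protease, and Casp2 each changed by 0.46 (adjusted p = 0.022 and 0.049). Both calls were lost under median scaling, with 0.24 for Htra2 (adjusted p = 0.564) and 0.20 for Casp2 (adjusted p = 0.682), and under cyclic loess (adjusted p = 0.054 and 0.151), and that of Casp2 in 10 of 19 alternatives. Without ESC replicate 1, ESC replicate 2 and N2B27 48 hr replicate 2 the adjusted p-values were 0.103, 0.16 and 0.073 for Htra2 and 0.258, 0.146 and 0.125 for Casp2, and 0.075 for Casp2 without N2B27 48 hr replicate 3 (0.29). Diablo, whose protein counters the inhibitors of apoptosis, and the DNA repair gene Parp1, a caspase substrate, did not pass (adjusted p = 0.078 and 0.467). Neither of the 2 inhibitors of apoptosis tested, Birc2 and Birc5, passed (adjusted p = 0.116 and 0.576), nor did Fadd, the only death receptor pathway gene tested (adjusted p = 0.511).

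At the outer membrane itself, 4 of 11 partner genes rose, 3 fell and 4 did not pass (median 0.078). Tspo, the translocator protein gene, rose by 0.62 ± 0.146, Mfn2, a mitofusin of membrane fusion, by 0.57 ± 0.102 and the fission gene Dnm1l by 0.50 ± 0.127, whereas the other mitofusin gene Mfn1, the channel gene Vdac1 and Bcap31 fell by 0.49 ± 0.119, 0.44 ± 0.106 and 0.36 ± 0.105. Dimmer probes of Dnm1l, Mfn1 and Bcap31 did not pass (adjusted p = 0.096, 0.060 and 0.206), nor did 1 of the 3 Tspo probes (adjusted p = 0.117). Under median scaling 0 of the 11 rose and 2 fell. Without ESC replicate 1 the adjusted p-values of Dnm1l, Mfn1, Vdac1 and Bcap31 were 0.124, 0.078, 0.057 and 0.090, and without ESC replicate 2 those of Tspo, Mfn1, Vdac1 and Bcap31 were 0.080, 0.055, 0.070 and 0.162. Vdac2, whose protein holds BAK, did not pass (adjusted p = 0.586), and neither did Mtch2, a BID receptor (adjusted p = 0.385), by its brightest probe, although its 2 other probes fell (-0.54 and -0.49).

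**Figure D4:**
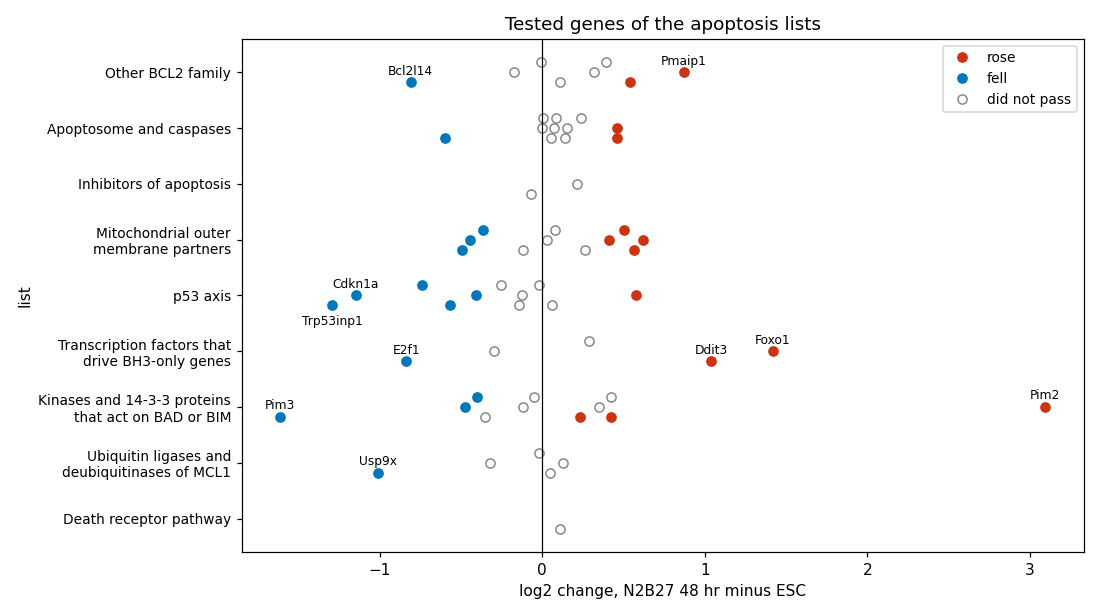
Log2 change (N2B27 48 hr minus ESC) of each tested gene in 9 apoptosis lists, with genes that rose in red, genes that fell in blue and those that did not pass open. Pim2 (a fitted 3.09), Foxo1 and Ddit3 lie farthest to the right, and Pim3, Trp53inp1 and Cdkn1a farthest to the left.

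Cell type markers separated the groups. Nanog fell by 5.07 and Pou5f1, which encodes Oct4, by 0.44 (adjusted p = 0.0016, and 0.061 under median scaling), while the epiblast gene Fgf5 was at least 30.7-fold higher. Fgf5 was detected on 0 ESC and 3 N2B27 48 hr arrays and entered the fit through the latter alone. The Sox1 probe was detected on 0 arrays. All 5 stem cell markers fell and all 4 epiblast markers rose, Fgf5 with this limit. Of the neural, endoderm and trophectoderm lists, 1 gene each was tested and none passed. Of 7 fibroblast markers, 2 were tested and rose, Thy1 and Dcn, the latter detected on 0 ESC arrays. Col1a1, Col1a2, Pdgfrb and Postn were detected on 0 arrays, and Lum on 1. The summed signal of the list was 54.6 to 61.96 in ESC and 276 to 318 in N2B27 48 hr, where most of it came from Thy1. The trophectoderm sum was 18.0 to 20.8 in ESC and 22.6 to 35.0 in N2B27 48 hr, with 2 of its 4 genes detected on 0 arrays. Those of the neural and endoderm lists overlapped between the groups. Whether fibroblasts were present, or had any part in the members' changes, was not tested. The mean array intensity, 242 to 264 in ESC and 187 to 250 in N2B27 48 hr, overlapped between the groups, and N2B27 48 hr replicate 1 was the dimmest. Across probes, which are not independent replicates, the ESC arrays correlated at 0.996 (Pearson's r), the N2B27 48 hr arrays at 0.991 to 0.994, and arrays of different groups at 0.949 to 0.956.

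**Figure D5:**
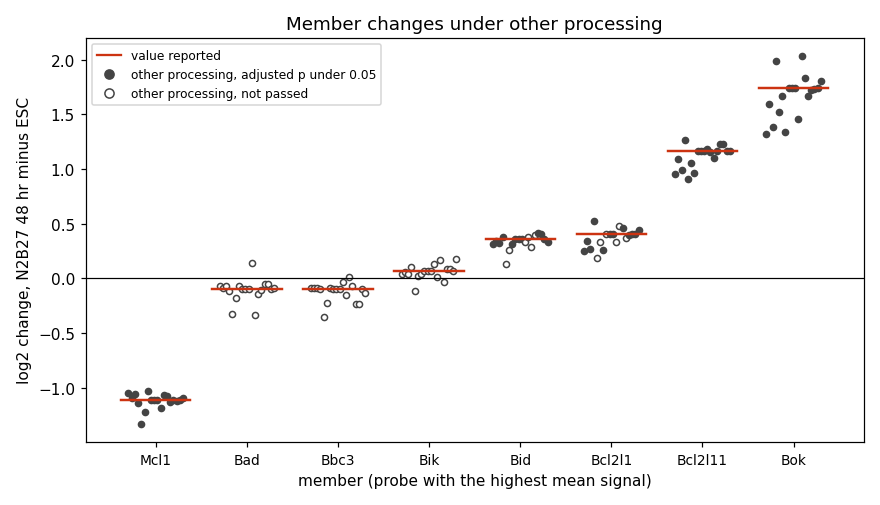
Log2 change (N2B27 48 hr minus ESC) of each tested member by its brightest probe as reported (red line) and under 18 other ways of processing (points, filled where the adjusted p was under 0.05). Mcl1, Bcl2l11 and Bok passed in all 18, Bcl2l1 and Bid in 12 and Bad, Bbc3 and Bik in 0.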

How the data were processed

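The deposited table holds 1 intensity per probe and array, averaged over beads and not normalized between arrays, and, per the file headers, a detection p-value beside it. BeadStudio is named in the submitters' processing notes. The lowest deposited intensity on each array was 38.5 to 40.7, so the values were not background-subtracted to near 0. The authors' own normalized intensity values, deposited separately, served as an alternative. No columns of other samples were present.

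Background correction used limma 3.58.1 under R 4.3.3 (normexp, controls inferred from the detection p-values), an offset of 16 was added, and log2 values were quantile normalized. Probes with a detection p under 0.05 on at least 2 of 5 arrays were tested (12605), N2B27 48 hr against ESC, with lmFit and eBayes with a variance trend, two-sided, Benjamini-Hochberg adjusted over all of them. Values after ± are standard errors unless an SD is named, and the number of arrays limits the precision (median standard error 0.145). "At least" folds divide the brighter group by whichever was larger on each dim array, the probe itself or the lowest detected signal, wherever a probe was undetected on some array of the dimmer group. Symbols come from the platform annotation, updated through Entrez identifiers (23962 of 23978 named probes matched in a RefSeq table of GRCm38.p6). No chip or scan date is named, and no batch was tested. The procedure was also run on simulated arrays with few changed probes, equally many up and down. That setting differs from these data, where many genes changed, so it cannot test the normalization. Figures used matplotlib 3.10.9.

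The members, roles, lists and motifs were chosen with earlier results of these data known. Genes named beside the members were, per list, up to 3 with the largest passing change each way and up to 2 that did not pass with the highest signal. The alternatives were other background corrections, offsets, normalizations and filters, the authors' values, leaving out each array, a replicate block, other variance models and the mean over a gene's probes.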

Additional observations from a re-analysis of the deposited data

How the results depend on the processing

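The fall of Mcl1 and the rises of Bok and Bcl2l11 passed in all 18 alternatives run on probes, and no called member changed sign in any of them. Under median scaling, 2 members rose, 0 of them pro-survival, 760 genes and 4 pathway genes rose, and the median change of all genes was -0.11. Relative to that median, Bid and Bcl2l1 were higher by 0.24 and 0.29 under this scaling, against 0.31 and 0.36 in the values reported. Under cyclic loess 2 members rose, 0 of them pro-survival, and without the detection filter 0 pro-survival members rose, where more probes shared the adjustment. Leaving out 1 array at a time, with the probes kept as reported, gave 2 to 4 members that rose, 0 to 1 of them pro-survival and 2 to 3 pro-death. It gave 1244 to 2228 genes that rose and 1238 to 1993 that fell, and 7 to 14 pathway genes that rose and 8 to 16 that fell. The lowest counts of genes and pathway genes came from leaving out an ESC array, which left that group with 1 array. The lowest member counts came also from leaving out N2B27 48 hr replicate 2, with both ESC arrays kept. With the replicate number as a replicate block, 4 members rose and 1 fell, 2330 genes rose and 2024 fell, and 16 pathway genes rose and 18 fell. That fit left 1 residual degree of freedom. The labels do not say that replicate numbers mark pairs, so the numbers were not taken as pairs. Correlations of deviations from the group means were -0.085 and -0.028 for the same-numbered arrays. With 2 ESC arrays the ESC deviations mirror each other, so these correlations cannot decide pairing. Signal over background limits Bcl2 and Bak1, whose probes could not be tested. The count of members that rose was 2 without either ESC array, 3 and 2 without N2B27 48 hr replicates 1 and 2, and 3 without the detection filter. It was 4 in the alternatives not named here, and 1 member fell in each alternative.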
